A study of Homo sapiens with 4 samples.

Results

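The genes described here encode the SR proteins, the heterogeneous nuclear ribonucleoproteins (hnRNPs) and the core proteins of the spliceosome, measured by RNA-seq in the established human keratinocyte line HaCaT. They were chosen by name, as SRSF, HNRNP, U2AF, SF3A or SF3B, PRPF and SNRP genes. Of 251 matching names among 58825 genes, 178 were left out because they end in P and digits, the form used for pseudogenes, and 6 because their mean was under 1 FPKM (sequenced fragments relative to the length of the transcript and the total of the library) in both groups. That left 67 genes: 11 SR proteins, 21 hnRNPs, 2 U2AF subunits, 9 SF3 subunits, 13 PRPF factors and 11 SNRP proteins. The 6 genes under the minimum were far below it. HNRNPCL1, HNRNPCL2, HNRNPCL3 and SRSF12 were listed at 0 in all 4 libraries, and HNRNPCL4 and SNRPN, a Sm protein gene known for its expression in the brain, did not exceed 0.02 FPKM. The gene just inside the minimum was PRPF40B, with means of 1.11 FPKM in the control and 0.67 in the knockdown.

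All cells grew in a medium with 1.2 mM calcium, a level used to induce keratinocyte differentiation, and all had received a lentivirus. The control group carried the hairpin shNC, the knockdown group the hairpin shlnc-DC against the long noncoding RNA lnc-DC, and each group had 2 libraries. Libraries were made from poly(A)-selected RNA, and the labels call the replicates biological without saying how many hairpins or transductions they stand for. The p-values measure the spread between these libraries. In bulk RNA, fewer cells of a type and less RNA per cell cannot be told apart.

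Splicing joins the exons of a pre-mRNA in a complex that is built anew on each intron. The U1 and U2 particles, made of small nuclear RNAs and proteins, mark the ends of the intron with U2AF and SF3. The U4/U6.U5 tri-snRNP then joins, and PRPF factors take part in the rearrangements that make the complex catalytic. SR proteins and hnRNPs bind the transcript itself and shift which sites are used, SR proteins often in favour of an exon and hnRNPs often against it. In skin, alternative splicing makes epithelial isoforms of receptors and adhesion proteins, and the factors described here are present in nearly all cells.

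The lnc-DC transcript, WFDC21P (ENSG00000261040), stood at 2.15 and 2.76 FPKM in the control and at 0.09 and 0.29 in the knockdown. Between 22351 and 22780 genes per library had a value above 0, and total read counts are unknown. Mitochondrial transcripts accounted for 41.2% and 41.9% of all FPKM in the control and 28.1% and 26.8% in the knockdown, and this touches every value below because FPKM is relative to the library total. Of 10 keratinocyte markers 8 reached 1 FPKM, with KRT14 at 0.35 FPKM or less, and the list summed to 744 and 782 FPKM in the control and 439 and 476 in the knockdown. The 4 markers of simple epithelium, KRT8, KRT18, KRT19 and EPCAM, were all present and summed to 825 and 903 FPKM in the control and 650 and 674 in the knockdown. The markers did not all follow the sums: KRT19 stood at 334 and 371 FPKM in the control and 202 and 198 in the knockdown, EPCAM at 93.3 and 109 and at 102 and 119, and PERP at 28.0 and 33.7 and at 32.6 and 36.04. Of 6 fibroblast and 4 melanocyte markers 0 reached 1 FPKM (COL1A2 and TYR were listed at 0 in every library). Of 4 endothelial and 4 immune markers 1 and 2 did, the defining PTPRC and KDR being listed at 0. The part of the epithelial markers and of the mitochondrial share in the results was not tested.

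Most splicing factor genes had higher values in the knockdown libraries, by modest amounts. The 67 genes summed to 2637 and 2823 FPKM in the control and to 3166 and 3566 in the knockdown, a ratio of 1.23. As a share of the FPKM of nuclear genes, which leaves the mitochondrial transcripts out, they made up 1.40% and 1.44% in the control and 1.62% and 1.77% in the knockdown. Both knockdown libraries lay above both control libraries on either measure. The difference between the groups was tested gene by gene with limma on log2(FPKM + 1) over 12411 genes, with Benjamini-Hochberg adjustment over all of them. Of the 67 genes 0 passed an adjusted p of 0.05, against 31 of all genes tested (0.250%), and their limma adjusted p ran from 0.062 for PRPF3 to 0.932 for SRSF9. At an unadjusted limma p of 0.05, 24 of the 67 genes were higher in the knockdown (35.8%) and 2 were lower (2.99%), against 14.8% and 8.00% of all genes tested. The values of 43 genes lay above the control without overlap and those of 3 below it (64.2% and 4.48%), against 35.6% and 19.2% of all genes. The median log2 fold change was 0.28, beside 0.09 for all genes tested. Of the 67 values 59 were above 0 (88.1%), against 61.4% of all genes.

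**Figure D1:**
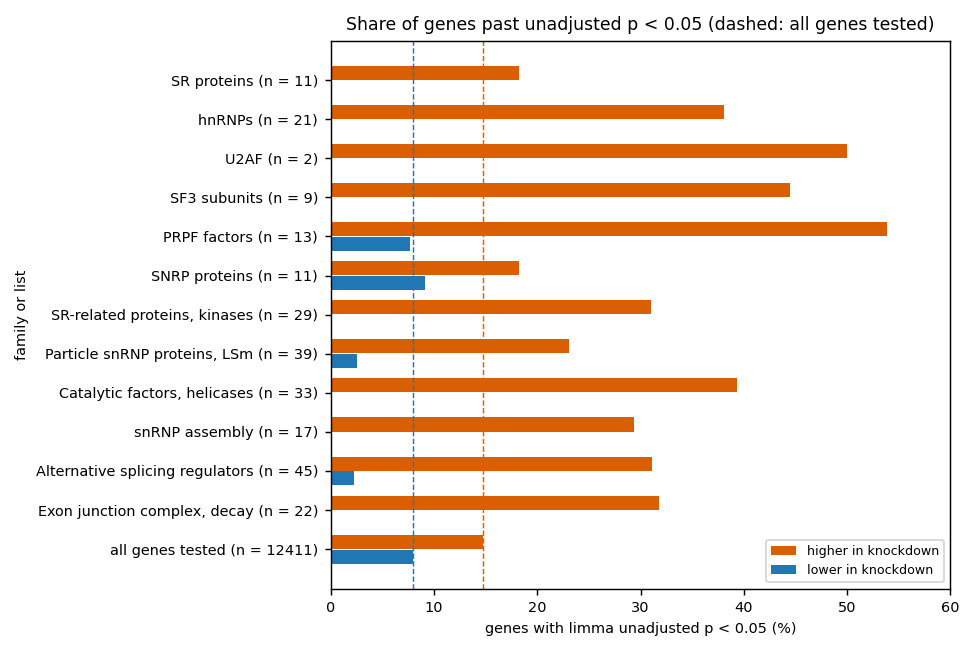
Percent of genes with an unadjusted limma p under 0.05 in each direction. Bars stand for the 6 families, the lists of other splicing genes and all 12411 genes tested. The 67 genes together are not drawn as a bar. Of them 35.8% were higher and 2.99% lower, against 14.8% and 8.00% of all genes tested.

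The counts depended on scaling and on single libraries. With each library centred on its median gene, 11 of the 67 genes were higher and 3 lower at an unadjusted p of 0.05, where 9.54% of all genes were higher and 11.3% lower. After rescaling to nuclear genes, 22 were higher and 2 lower, against 11.3% and 8.53% of all genes. The count of higher genes was 13 without control replicate 1, where 12.1% of all genes were higher, and 11 without knockdown replicate 2, where 8.97% were.

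**Figure D2:**
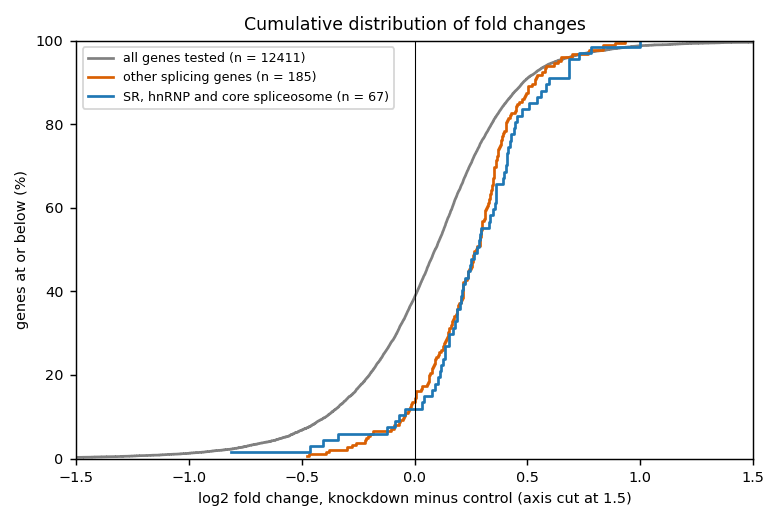
Cumulative distribution of log2 fold changes, knockdown minus control on log2(FPKM + 1). Curves stand for the 67 genes, the 185 other splicing genes and all 12411 genes tested. The median of the 67 genes is 0.28 and that of all genes 0.09.

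The genes lie on 21 chromosomes and span a wide range of levels. Mean FPKM over the 4 libraries ran from 0.89 for PRPF40B to 263.7 for HNRNPA1, with a median of 30.3 FPKM, beside 5.43 FPKM for all genes tested. Across the 67 genes, which share the same 4 libraries, the log2 fold change had a Spearman correlation of 0.25 with mean FPKM, 0.07 with transcript GC content and 0.07 with length. Their median GC content was 45.4%, beside 49.4% for all genes tested. The ratio of group means reached 1.5 in 10 genes and was at or below the inverse in 1, PRPF40B, which passed the minimum only through the control.

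**Figure D3:**
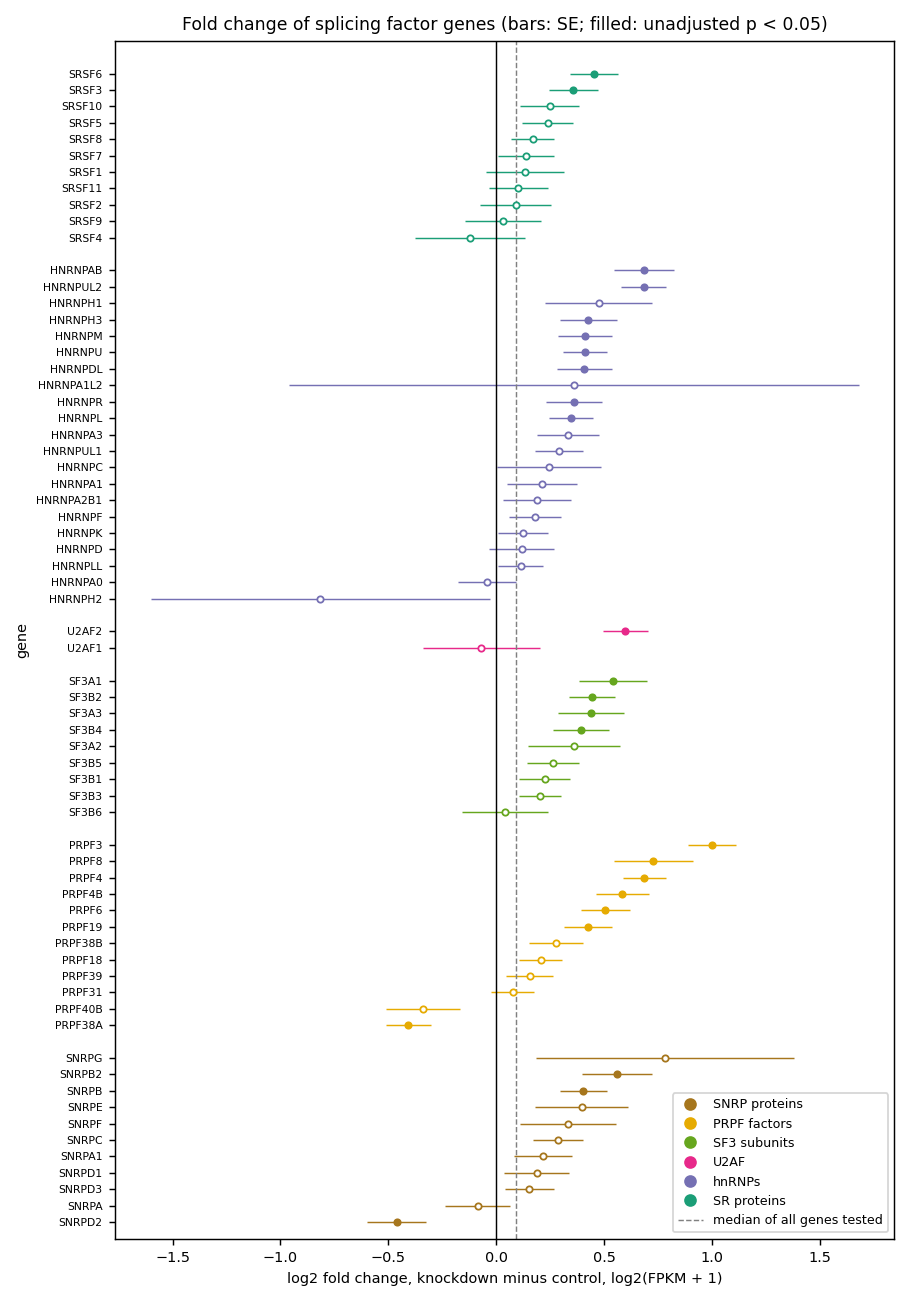
Log2 fold change of the genes, except 1 that is not drawn, with limma standard errors (knockdown minus control on log2(FPKM + 1)), sorted within the 6 families; filled points have an unadjusted p under 0.05. Most values lie above 0, and the widest standard errors belong to HNRNPA1L2, HNRNPH2 and SNRPG.

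The SR proteins, which bind exonic enhancers through RNA recognition motifs and recruit the splicing machinery through their arginine and serine repeats, differed little between the groups. Of 11 genes 2 were higher at an unadjusted limma p of 0.05 (18.2%, against 14.8% of all genes tested) and 0 were lower. The 5 genes above the control without overlap made up 45.5%, against 35.6% of all genes, so both shares lay near those of all genes. The median log2 fold change was 0.14, with 0.23 without knockdown replicate 1 and 0.0104 under quantile normalization. The count of 2 was 1 under median centring and under quantile normalization (9.09%, against 9.54% and 10.8% of all genes). Their summed level was 226 and 229 FPKM in the control and 263 and 270 in the knockdown.

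SRSF6, whose levels are known to affect wound repair in skin, had the highest mean level of the family. Its values were 48.9 and 44.1 FPKM in the control and 65.1 and 62.9 in the knockdown (log2 fold change 0.45, SE 0.11, limma adjusted p = 0.122). SRSF3, the smallest of the classical SR proteins and an adaptor for mRNA export, stood at 28.2 and 31.1 FPKM in the control and 36.7 and 39.8 in the knockdown (0.36, SE 0.11, limma adjusted p = 0.174). Neither gene's groups overlapped. SRSF5 had 20.7 and 18.2 FPKM in the control and 22.5 and 23.7 in the knockdown, also without overlap (limma adjusted p = 0.307).

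For the best studied SR proteins the replicates spread as widely as the groups. SRSF1, the founding member of the family, stood at 21.6 and 15.4 FPKM in the control and at 20.2 and 20.03 in the knockdown. SRSF2, which binds exonic enhancers and stays in the nucleus, stood at 17.7 and 23.8 FPKM in the control and at 22.3 and 21.6 in the knockdown. In both genes the knockdown values lay between the control values, and the log2 fold changes of 0.13 and 0.09 turned negative under quantile normalization and without 1 control library (replicate 2 for SRSF1, replicate 1 for SRSF2). SRSF4 had 10.3 and 11.1 FPKM in the control and 12.7 and 7.41 in the knockdown, so that the knockdown libraries lay on either side of the control (-0.12, SE 0.25; above 0 without knockdown replicate 2). The remaining 5 genes, SRSF7, SRSF8, SRSF9, SRSF10 and SRSF11, had ratios from 1.01 to 1.21, and SRSF9 and SRSF11 had log2 fold changes below 0 under some alternatives.

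The hnRNPs, which coat nascent transcripts and often silence splice sites, made up the most abundant family. Their summed level was 1262 and 1362 FPKM in the control and 1444 and 1760 in the knockdown. Of 21 genes 8 were higher at an unadjusted limma p of 0.05 (38.1%, against 14.8% of all genes tested) and 0 were lower, against 8.00% of all genes. Above the control without overlap lay 14 genes (66.7%, against 35.6%). The median log2 fold change was 0.33, with 0.18 without knockdown replicate 2 and 0.22 under quantile normalization. The count of 8 was 3 under median centring (14.3%, against 9.54% of all genes) and 5 under quantile normalization (23.8%, against 10.8%).

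HNRNPUL2, a nuclear scaffold protein related to hnRNP U that also acts in the response to DNA breaks, gave the smallest p of the family. Its values were 70.1 and 69.6 FPKM in the control and 111 and 114 in the knockdown (ratio 1.61, log2 fold change 0.68, SE 0.10, limma adjusted p = 0.0782). HNRNPAB, which binds AU-rich and promoter sequences, stood at 86.7 and 99.0 FPKM in the control and 139 and 162 in the knockdown (0.68 on the log2 scale, SE 0.14, limma adjusted p = 0.106). HNRNPU, the scaffold attachment factor that ties chromatin and RNA together, stood at 21.7 and 22.4 FPKM in the control and 30.2 and 29.2 in the knockdown (0.41, SE 0.10, limma adjusted p = 0.121). In these 3 genes the lower knockdown library exceeded the higher control library by more than the distance between replicates. The other 5 hnRNPs with an unadjusted p under 0.05, HNRNPL, HNRNPM, HNRNPH3, HNRNPDL and HNRNPR, had ratios between 1.28 and 1.36.

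The most abundant hnRNPs differed less. HNRNPA1, which antagonizes SR proteins in the choice of splice sites, stood at 228 and 260 FPKM in the control and 255 and 312 in the knockdown, with 1 knockdown value between the control values. HNRNPA2B1, its close relative that also sorts RNAs for transport, stood at 133 and 142 FPKM in the control and 139 and 177 in the knockdown, again with overlap. HNRNPK, a KH-domain protein that binds C-rich RNA, stood at 139 and 142 FPKM in the control and 145 and 161 in the knockdown, without overlap. The limma adjusted p of these 3 genes lay between 0.476 and 0.565. HNRNPA0, an hnRNP that binds AU-rich elements, stood at 17.2 and 15.7 FPKM in the control and 17.5 and 14.5 in the knockdown. Its log2 fold change of -0.04 was above 0 without control replicate 1 or knockdown replicate 2.

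**Figure D4:**
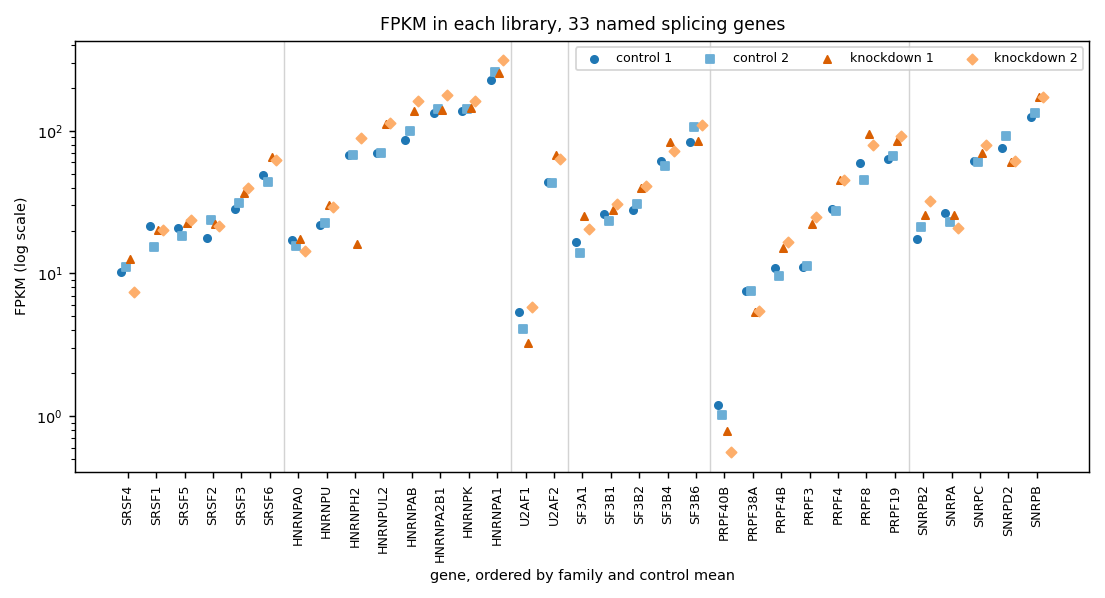
FPKM of selected genes in each library on a log axis, with 1 point per library (2 control and 2 knockdown). PRPF3, PRPF4, HNRNPUL2 and U2AF2 separate the groups upward and PRPF38A and SNRPD2 downward.

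U2AF recognises the end of the intron, its large subunit U2AF2 on the pyrimidine tract and its small subunit U2AF1 on the AG that follows. U2AF2 stood at 43.6 and 42.9 FPKM in the control and 68.2 and 63.8 in the knockdown, a ratio of 1.53 without overlap (log2 fold change 0.60, SE 0.10, limma adjusted p = 0.0923). U2AF1 had 5.34 and 4.05 FPKM in the control and 3.25 and 5.84 in the knockdown, so that the knockdown values lay outside the control values on both sides. Its log2 fold change of -0.07 (SE 0.27) had the other sign without control replicate 1 or knockdown replicate 1. The U2AF2 level was well above that of U2AF1, with means over the 4 libraries of 54.6 and 4.62 on the FPKM scale, which is per transcript length. Copies were searched for only by pseudogene name, so a copy of U2AF1 under another name would have been missed.

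SF3A and SF3B are the parts of the U2 particle that hold the branch point of the intron. All 9 subunits had a log2 fold change above 0, as had 61.4% of all genes tested, and their median was 0.36. However, SF3B6 turned negative under the 3 other scalings and without control replicate 1 or knockdown replicate 2. Of the 9 genes 4 were higher at an unadjusted limma p of 0.05 (44.4%, against 14.8% of all genes tested) and 7 lay above the control without overlap (77.8%, against 35.6%). The count of 4 was 1 under median centring (11.1%, against 9.54% of all genes) and 2 under quantile normalization (22.2%, against 10.8%). The share under median centring thus lay near that of all genes. Without knockdown replicate 2 the median was 0.27, and without control replicate 2 it was 0.33. The summed level was 356 and 374 FPKM in the control and 436 and 452 in the knockdown.

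SF3B2, which contacts the RNA upstream of the branch point, stood at 28.0 and 30.6 FPKM in the control and 39.6 and 40.9 in the knockdown (0.44, SE 0.11, limma adjusted p = 0.120). SF3A1, the scaffold of SF3A, stood at 16.7 and 13.9 FPKM in the control and 25.1 and 20.5 in the knockdown (0.54, SE 0.16, limma adjusted p = 0.151). SF3B4, an RNA-binding subunit, stood at 61.9 and 56.4 FPKM in the control and 83.9 and 72.2 in the knockdown (0.39, SE 0.13, limma adjusted p = 0.181). All 3 separated the groups, and SF3A3 was the remaining gene with an unadjusted p under 0.05, with a ratio of 1.38. SF3B1, the subunit that clamps the branch site and is recurrently mutated in blood cancers, had 26.2 and 23.5 FPKM in the control and 27.6 and 30.7 in the knockdown, without overlap (ratio 1.17, limma adjusted p = 0.338). SF3B6, which touches the branch-point adenosine and had the highest level of the family, stood at 82.9 and 106 FPKM in the control and 84.3 and 110 in the knockdown. Its replicates were further apart than the group means.

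The PRPF factors included the 2 smallest p-values of the 67 genes, those of PRPF3 and PRPF4, and also the smallest p in the opposite direction, that of PRPF38A. Their summed level was 292 and 282 FPKM in the control and 407 and 413 in the knockdown, a ratio of 1.43. Of 13 genes 7 were higher and 1 was lower at an unadjusted limma p of 0.05. The shares were 53.8% and 7.69%, against 14.8% and 8.00% of all genes tested. Under median centring 5 were higher and 2 lower (38.5% and 15.4%, against 9.54% and 11.3% of all genes). Groups did not overlap in any of the 13 genes, with 11 above and 2 below the control (84.6% and 15.4%, against 35.6% and 19.2%). The median log2 fold change was 0.29, and 0.23 without knockdown replicate 2.

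PRPF3 and PRPF4 bind each other and hold the U4/U6 particle together. PRPF3 (chromosome 1, 150321476 to 150353195, plus strand, GRCh38 in GENCODE 29) stood at 11.1 and 11.3 FPKM in the control and 22.3 and 24.7 in the knockdown. Both knockdown values were about 2 times the control values (ratio 2.09, log2 fold change 1.001, SE 0.11, limma adjusted p = 0.062). With only the genes at a mean of 5 FPKM or more tested, PRPF3 had a limma adjusted p of 0.0449. PRPF4 (chromosome 9, 113275343 to 113292905, plus strand) stood at 28.3 and 27.4 FPKM in the control and 45.4 and 45.5 in the knockdown, with SDs of 0.629 and 0.0919 FPKM (n = 2 per group). The groups lay far apart beside that spread (ratio 1.63, 0.69 on the log2 scale, SE 0.10, limma adjusted p = 0.0747). PRPF31, a further U4/U6 protein, had a ratio of 1.06, and its log2 fold change of 0.08 was below 0 under median centring and quantile normalization.

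PRPF8, the large U5 protein that forms the active site cavity, stood at 59.8 and 45.1 FPKM in the control and 94.5 and 79.6 in the knockdown (ratio 1.66, 0.73, SE 0.18, limma adjusted p = 0.126). Its SD was 10.4 FPKM in the control and 10.5 in the knockdown, wide beside the other PRPF genes, and the groups still did not overlap. PRPF4B, a kinase that acts on tri-snRNP proteins, stood at 10.9 and 9.61 FPKM in the control and 15.0 and 16.7 in the knockdown (ratio 1.55, 0.58, SE 0.12, limma adjusted p = 0.109). PRPF19, the ubiquitin ligase at the centre of the complex named after it, stood at 63.3 and 67.01 FPKM in the control and 84.3 and 91.3 in the knockdown (ratio 1.35, 0.42, SE 0.11, limma adjusted p = 0.133). PRPF6, which bridges the U5 and U4/U6 particles, had a ratio of 1.43 and an unadjusted p under 0.05 as well.

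PRPF38A and PRPF40B lay the other way. PRPF38A, which enters the spliceosome just before activation, stood at 7.51 and 7.5 FPKM in the control and 5.36 and 5.47 in the knockdown. The mean was 1.39-fold lower, with SDs of 0.00707 and 0.0778 FPKM (log2 fold change -0.41, SE 0.11, limma adjusted p = 0.131). PRPF40B, a protein with WW and FF domains that binds splicing factors, had 1.20 and 1.02 FPKM in the control and 0.78 and 0.56 in the knockdown. That was a 1.66-fold lower mean at a low level (-0.34, SE 0.17, limma adjusted p = 0.312). PRPF40B passed the minimum of 1 FPKM only through the control, so the minimum fixed its direction. It still enters the count of 3 genes below the control without overlap. PRPF38A and its paralog PRPF38B (ratio 1.29) thus stood on opposite sides of the control.

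The SNRP genes encode the Sm proteins, which form a ring around the U1, U2, U4 and U5 RNAs, and proteins specific to the U1 and U2 particles. Of 11 genes 2 were higher and 1 was lower at an unadjusted limma p of 0.05 (18.2% and 9.09%), close to the 14.8% and 8.00% of all genes tested. Without overlap, 5 lay above and 1 below the control (45.5% and 9.09%, against 35.6% and 19.2%). With a mean of at least 5 FPKM required, the SNRP shares stayed at 18.2% higher and 45.5% above without overlap. Those of all genes were then 19.98% and 42.6%. The median log2 fold change was 0.29, with 0.10 without control replicate 1, 0.16 without knockdown replicate 2 and 0.16 under quantile normalization. The count of higher genes was 0 under median centring, where 9.54% of all genes were higher, and 2 under quantile normalization (18.2%, against 10.8%). The summed level was 452 and 530 FPKM in the control and 544 and 602 in the knockdown, with the control libraries further apart than in the other families relative to the difference.

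SNRPB, which encodes SmB, stood at 126 and 133 FPKM in the control and 172 and 171 in the knockdown (ratio 1.33, 0.40, SE 0.11, limma adjusted p = 0.142). SNRPB2, the U2-specific B'' protein, stood at 17.4 and 21.1 FPKM in the control and 25.9 and 32.0 in the knockdown (ratio 1.502, 0.56, SE 0.16, limma adjusted p = 0.151). SNRPC, the U1 protein that steadies pairing with the splice site, stood at 61.7 and 60.4 FPKM in the control and 70.0 and 79.7 in the knockdown (0.29, SE 0.12, limma adjusted p = 0.240). These 3 genes had no overlap between groups.

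Ring proteins, which assemble in equal numbers, did not all lie on the same side of the control. SNRPD2, which pairs with SNRPD1 in the ring, stood at 76.0 and 92.6 FPKM in the control and 60.1 and 61.2 in the knockdown, a 1.39-fold lower mean without overlap (log2 fold change -0.46, SE 0.14, limma adjusted p = 0.155). SNRPD1, SNRPD3, SNRPE and SNRPF had ratios from 1.12 to 1.33, none with an unadjusted p under 0.05. SNRPA, the U1 protein that binds a stem-loop of U1 RNA, stood at 26.5 and 22.9 FPKM in the control and 25.7 and 20.9 in the knockdown. Its replicates spread more than the groups, and the log2 fold change of -0.09 was above 0 without control replicate 1 or knockdown replicate 2.

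In 3 of the 67 genes the replicates of a group differed at least 2-fold, and all 3 share sequence with other genes or copies. SNRPG, the smallest Sm protein, stood at 10.9 and 37.1 FPKM in the control and 28.2 and 44.8 in the knockdown. HNRNPA1L2, a copy of HNRNPA1 that can encode a protein, stood at 4.76 and 5.01 FPKM in the control and at 0.87 and 29.5 in the knockdown, a 34-fold distance between the knockdown libraries. Its log2 fold change of 0.36 was -1.65 without knockdown replicate 2, and that of SNRPG, 0.78, was -0.06 without control replicate 1. HNRNPH2, which binds runs of G, stood at 67.7 and 67.6 FPKM in the control and 16.1 and 88.4 in the knockdown. The annotated read-through transcript RPL36A-HNRNPH2, which contains its exons, was listed at 0 in both control libraries and stood at 37.3 FPKM in knockdown replicate 1 and 1.35 in replicate 2. HNRNPH2 was thus low in the library in which the read-through was high, and its log2 fold change of -0.81 (SE 0.79) was 0.38 without knockdown replicate 1. Of the remaining 64 genes 24 were higher at an unadjusted limma p of 0.05, beside 14.8% of all genes tested. Their median log2 fold change was 0.27, beside 0.09 for all genes. SNRPG and HNRNPA1L2 were singled out after their values had been seen.

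**Figure D5:**
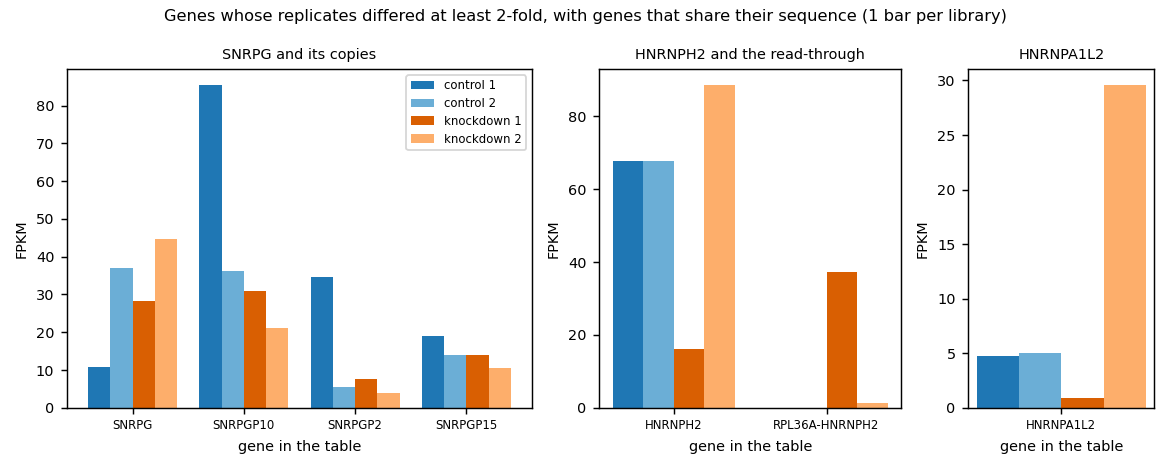
FPKM per library of SNRPG beside its pseudogenes, HNRNPH2 beside the read-through RPL36A-HNRNPH2, and HNRNPA1L2, with 1 bar per library. SNRPG is lowest and SNRPGP10 highest in control replicate 1, at 10.9 and 85.3 FPKM.

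The copies of SNRPG were highest in the library in which the gene was lowest. Its pseudogene SNRPGP10 (chromosome 1, 205351247 to 205351471, plus strand) stood at 85.3 and 36.2 FPKM in the control and 30.8 and 21.2 in the knockdown, and the 20 named SNRPG pseudogenes together made up 92.8% and 60.5% of the sum of gene and copies in the control and 65.6% and 44.3% in the knockdown. That sum was 151 and 93.9 FPKM in the control and 82.0 and 80.5 in the knockdown, so the direction for SNRPG alone is uncertain. The coding sequence of SNRPG and the pseudogene are set below each other because sequencing reads can lie within the stretches that they share. Capitals mark the bases that differ, both read 5′ to 3′ from the reference transcripts of GENCODE 29.
SNRPG: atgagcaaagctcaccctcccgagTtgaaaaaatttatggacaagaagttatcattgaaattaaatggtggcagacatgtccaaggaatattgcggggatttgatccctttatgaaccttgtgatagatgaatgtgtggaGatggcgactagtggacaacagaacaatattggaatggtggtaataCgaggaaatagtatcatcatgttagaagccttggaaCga
SNRPGP10: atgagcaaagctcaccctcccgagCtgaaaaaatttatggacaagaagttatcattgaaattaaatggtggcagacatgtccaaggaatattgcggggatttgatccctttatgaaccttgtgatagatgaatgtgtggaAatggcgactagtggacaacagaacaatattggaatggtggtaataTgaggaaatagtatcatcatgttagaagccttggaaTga
The aligned stretch of 225 bases had 4 mismatches (98.2% identity), and the longest run without a difference was 115 bases. SNRPGP15 and SNRPGP2 were 97.7% and 97.8% identical over 222 and 226 bases.

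Other genes with expressed pseudogenes kept a steadier ratio to them. Pseudogenes made up 43.8% to 46.6% of the summed FPKM of SNRPE and its copies, 28.1% to 31.1% for HNRNPA1 with its 75 named pseudogenes, 18.4% to 25.1% for HNRNPC and 12.3% to 13.7% for HNRNPK. Reads shared with a copy may have been assigned to either, so the levels of these genes are uncertain as well. A total of 50 genes had neither an expressed pseudogene of their name nor an exon shared with another gene on the same strand. Of these 21 were higher (42.0%, against 14.8% of all genes tested) and 2 lower (against 8.00%) at an unadjusted limma p of 0.05. Their median log2 fold change was 0.28, and 0 passed the adjusted threshold. Copies under other names were not searched for.

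Promoter sequences from RefSeq (GRCh38.p14), 250 bases before to 50 after each start, were found for 59 of the 67 genes. The promoters of 3 genes with higher values and 1 with lower values are shown, 5′ to 3′ on the strand of the gene, because these genes separated the groups most clearly among those with an entry. Capitals mark matches on either strand to 5 motifs: the core of ETS factor sites, written CCGGAAG; the box bound by NF-Y, written CCAAT; the GC box bound by Sp1, written GGGCGG; a palindrome common in promoters of housekeeping genes, written CTCGCGAG; and the TATA box, written TATAAA. The windows are chr9:113275408-113275707 (plus strand) for PRPF4, chr11:62727408-62727707 (minus strand) for HNRNPUL2, chr19:55654785-55655084 (plus strand) for U2AF2 and chr1:52404352-52404651 (plus strand) for PRPF38A.
PRPF4: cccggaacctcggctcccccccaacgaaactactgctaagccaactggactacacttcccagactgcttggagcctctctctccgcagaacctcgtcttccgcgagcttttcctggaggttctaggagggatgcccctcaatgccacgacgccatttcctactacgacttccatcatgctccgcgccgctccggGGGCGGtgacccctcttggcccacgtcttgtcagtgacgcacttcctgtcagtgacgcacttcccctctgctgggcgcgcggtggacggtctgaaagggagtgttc
HNRNPUL2: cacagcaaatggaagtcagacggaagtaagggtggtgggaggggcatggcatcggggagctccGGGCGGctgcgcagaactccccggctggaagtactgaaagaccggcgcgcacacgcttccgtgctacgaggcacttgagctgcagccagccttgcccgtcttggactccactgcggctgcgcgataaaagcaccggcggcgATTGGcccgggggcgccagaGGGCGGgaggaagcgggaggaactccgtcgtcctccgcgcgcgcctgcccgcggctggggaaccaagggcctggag
U2AF2: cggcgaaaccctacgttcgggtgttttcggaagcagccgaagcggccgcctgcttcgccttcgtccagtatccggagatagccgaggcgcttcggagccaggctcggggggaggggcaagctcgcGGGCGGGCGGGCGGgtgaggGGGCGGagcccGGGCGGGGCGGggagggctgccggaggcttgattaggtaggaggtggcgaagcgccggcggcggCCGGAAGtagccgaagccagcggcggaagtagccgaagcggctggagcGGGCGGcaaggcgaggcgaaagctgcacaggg
PRPF38A: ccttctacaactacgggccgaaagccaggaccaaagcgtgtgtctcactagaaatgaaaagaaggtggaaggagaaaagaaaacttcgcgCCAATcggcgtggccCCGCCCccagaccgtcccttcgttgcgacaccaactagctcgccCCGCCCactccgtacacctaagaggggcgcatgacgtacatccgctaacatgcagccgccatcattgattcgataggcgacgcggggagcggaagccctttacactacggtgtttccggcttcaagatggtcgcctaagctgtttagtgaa
PRPF4 held 1 GC box, HNRNPUL2 a CCAAT box on the minus strand and 2 GC boxes, and U2AF2 an ETS core and 7 GC boxes, some of them overlapping. PRPF38A held a CCAAT box and 2 GC boxes on the minus strand. HNRNPUL2, with higher values, and PRPF38A, with lower values, thus both held CCAAT and GC boxes.

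Over the 59 genes the ETS core was found in 21 (35.6%), beside 24.2% of 8542 tested genes with an entry and 10.3% of 35116 promoters. CCAAT was found in 30 (50.8%, against 44.0% and 34.6%), GGGCGG in 38 (64.4%, against 77.9% and 44.95%), CTCGCGAG in 5 (8.47%, against 2.65% and 1.02%) and TATAAA in 7 (11.9%, against 7.77% and 11.5%). The families differed in their matches: the ETS core was found in 7 of 10 SNRP and 6 of 8 SF3 promoters but in 3 of 20 hnRNP promoters, and CCAAT in 17 of 20 hnRNP and 1 of 8 SF3 promoters. These matches are descriptions of the letters in the window, and the differences were not tested.

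Other splicing genes outside the 6 families lay in the same direction. Of 200 listed genes, 185 gene IDs were tested, and 57 were higher (30.8%) and 2 lower (1.08%) at an unadjusted limma p of 0.05, beside 14.8% and 8.00% of all genes, with a median log2 fold change of 0.27 and 0 passing the adjusted threshold. With each library centred on its median the split was 24 to 4 (13.0% and 2.16%, against 9.54% and 11.3% of all genes). Under quantile normalization it was 27 to 6 (14.6% and 3.24%, against 10.8% and 11.4% of all genes), so the share of higher genes then lay near that of all genes.

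Among 29 SR-related proteins and SR kinases 9 were higher and 0 lower at an unadjusted limma p of 0.05. The shares were 31.0% and 0%, against 14.8% and 8.00% of all genes tested. Under median centring 4 were higher (13.8%, against 9.54% of all genes) and under quantile normalization 3 (10.3%, against 10.8%). SAFB, a scaffold protein that binds RNA and chromatin, stood at 14.8 and 14.4 FPKM in the control and 22.7 and 21.5 in the knockdown, and TRA2A, an activator of exon inclusion, at 14.2 and 12.0 and at 20.6 and 17.1. The kinase SRPK1, which phosphorylates SR proteins in the cytoplasm, stood at 26.9 and 23.2 FPKM in the control and 21.4 and 21.2 in the knockdown, and the nuclear kinase CLK2 at 9.85 and 7.98 and at 8.46 and 6.02. Both kinases lay lower on average, with limma adjusted p of 0.340 and 0.453, and CLK2 overlapped. Of their relatives, CLK1, CLK3 and CLK4 were higher without overlap, as were 35.6% of all genes tested. Their log2 fold changes were 0.19, 0.16 and 0.27, with limma adjusted p between 0.390 and 0.501. CLK3, at 1.78 and 1.75 FPKM in the control and 2.09 in both knockdown libraries, and CLK4, at 1.71 and 1.19 and at 2.00 and 1.89, lay near the minimum. SRPK2 stood at 0.06 with overlap, below the median of 0.09 of all genes.

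Among 39 particle-specific and LSm proteins 9 were higher and 1 lower at an unadjusted limma p of 0.05. They made up 23.1% and 2.56%, against 14.8% and 8.00% of all genes tested. With median centring 7 were higher (17.9%, against 9.54% of all genes) and with quantile normalization 9 (23.1%, against 10.8%). SART1, a tri-snRNP protein, stood at 19.9 and 20.4 FPKM in the control and 32.0 and 32.3 in the knockdown (ratio 1.596, limma adjusted p = 0.0789). DDX46, the helicase that acts with U2 on the branch site, stood at 15.5 and 15.4 and at 23.3 and 25.2. SNRNP27, another tri-snRNP protein, stood at 7.58 and 8.16 FPKM in the control and 5.36 and 5.46 in the knockdown (limma adjusted p = 0.116), and SNRNP35, a protein of the minor spliceosome, at 3.88 and 4.03 and at 2.88 and 3.17. SART1 and SNRNP27 belong to the same particle and stood on opposite sides of the control. SNRNP27 shares exon sequence with MXD1, so shared reads may have been assigned to either gene.

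Of 33 catalytic factors and helicases 13 were higher and 0 lower at an unadjusted limma p of 0.05. That was 39.4% and 0%, against 14.8% and 8.00% of all genes tested. Median centring and quantile normalization each left 6 higher (18.2%, against 9.54% and 10.8% of all genes). DDX23, the U5 helicase, stood at 19.8 and 19.7 FPKM in the control and 29.2 and 33.5 in the knockdown (ratio 1.59, limma adjusted p = 0.0959), and SLU7, a factor of the last step, at 12.4 and 11.9 and at 16.3 and 17.5. DDX39B, a helicase that also couples splicing to export, stood at 31.1 and 29.5 FPKM in the control and 19.4 and 27.4 in the knockdown, and CWC15 at 22.4 and 30.1 and at 21.4 and 29.3. DDX39B shares exons with a read-through transcript.

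Among 17 genes of snRNP assembly 5 were higher and 0 lower at an unadjusted limma p of 0.05. The shares of 29.4% and 0% lay beside 14.8% and 8.00% of all genes tested. The count of 5 was 2 under median centring and under quantile normalization (11.8%, against 9.54% and 10.8% of all genes). GEMIN4 and GEMIN5 belong to the SMN complex, which loads Sm rings onto small nuclear RNAs, and GEMIN5 recognises those RNAs. GEMIN4 stood at 10.1 and 8.93 FPKM in the control and 18.5 and 17.0 in the knockdown (ratio 1.87, limma adjusted p = 0.0747), and GEMIN5 at 8.64 and 8.34 and at 13.0 and 13.4. GEMIN8 had 2.85 and 3.31 FPKM in the control and 2.25 and 2.57 in the knockdown, and GEMIN7 5.28 and 5.29 and then 4.93 and 5.40.

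Regulators of alternative splicing numbered 45 tested IDs, of which 14 were higher and 1 lower at an unadjusted limma p of 0.05. This was 31.1% and 2.22%, against 14.8% and 8.00% of all genes tested. When median centred, 5 were higher (11.1%, against 9.54% of all genes), and when quantile normalized 7 (15.6%, against 10.8%). MATR3, a nuclear matrix protein with 2 gene IDs that share exons, stood at 27.4 and 25.4 FPKM in the control and 53.8 and 42.6 in the knockdown for the ID with the smaller p. The other ID stood at 10.9 and 4.81 FPKM in the control and 3.68 and 15.6 in the knockdown, with overlap (log2 fold change 0.08, SE 0.69). ESRP2, which sets epithelial splice patterns, was the gene on the other side, at 6.39 and 5.68 FPKM in the control and 4.12 and 4.58 in the knockdown (limma adjusted p = 0.169). Its relative ESRP1 had a higher level, at 34.0 and 31.0 FPKM in the control and 32.3 and 29.7 in the knockdown, with overlap (log2 fold change -0.07). RBFOX2, a regulator of mesenchymal splice patterns, stood at 11.4 and 9.88 and at 9.19 and 8.78.

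Of 22 genes of the exon junction complex and of nonsense-mediated decay 7 were higher and 0 lower at an unadjusted limma p of 0.05. Their shares of 31.8% and 0% lay beside 14.8% and 8.00% of all genes tested. The count of 7 was 0 under median centring and under quantile normalization, where 9.54% and 10.8% of all genes were higher. MAGOHB, a core subunit of the junction complex, stood at 4.28 and 4.26 FPKM in the control and 5.63 and 5.80 in the knockdown, and SMG8, a regulator of the decay kinase, at 8.17 and 9.23 and at 10.97 and 12.3. The export factors THOC6 and THOC5 lay lower on average, THOC6 at 19.5 and 21.3 FPKM in the control and 18.3 and 17.4 in the knockdown and THOC5 at 6.81 and 7.47 and at 5.66 and 6.47.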

How the data were processed

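HaCaT RNA was sequenced in 4 libraries, 2 per group. The submitters' processing notes name StringTie 1.3.4d, HISAT2 2.0.4, cutadapt 1.9, edgeR and DESeq2 without saying what each did. Genome build, annotation and strand setting were not given in the sources used here. The authors deposited FPKM values with 2 decimals, normalized to transcript length and library total. Their deposited table also holds the fold (ratio) of group means and its log2; for 67 of 67 genes described here the deposited log2 lay within 0.05 of the log2 ratio of means. There were 0 columns without a sample. At the best depth tried, 35.0% to 38.1% of low values lay within 0.1 of a whole read, where the typical depth gave 17.4% to 17.9% (medians per library), so whole reads were not recovered. Depth is treated as unknown and no counting interval is given.

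Genes whose mean reached 1 FPKM in a group were tested as log2(FPKM + 1) in a two-sided limma 3.58.1 fit (R 4.3.3) with group as its sole term and a trended prior. Benjamini-Hochberg adjustment covered 12411 genes, with a threshold of 0.05. Log2 fold changes on this scale understate the change of low genes; ratios are of mean FPKM. An exact permutation test of 2 against 2 cannot give a p below 0.333, and limma reaches smaller values by sharing the spread among genes. Positions, GC content, lengths and exon overlaps are from GENCODE 29 (GRCh38), which held 58552 of 58825 IDs. Figures used matplotlib 3.10.9.

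The genes and the lists of other splicing genes were chosen with earlier results of these data known. Values per library are given for up to 3 genes with the smallest p in each direction and the most abundant gene in each family, for SRSF1, SRSF2, SRSF3, HNRNPA1, HNRNPA2B1, HNRNPK, SF3B1, PRPF8, SNRPB, SNRPN, U2AF1 and U2AF2, and for up to 2 genes per direction in each list; some results that enter the counts are not reported by name here. Alternatives covered the pseudocount, the filter, scaling, the fit, GC content with length, a replicate block and each library left out; 1, leaving out genes with copies or shared exons, was chosen after seeing the data.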

Additional observations from a re-analysis of the deposited data

How the results depend on the processing

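Of 33 named genes 25 kept their direction under every alternative run. Requiring a mean of 5 FPKM left 1 of the described genes called by limma, PRPF3. For genes higher at an unadjusted p under 0.05, median centring gave 11 of the 67 higher and 3 lower (24 and 2 as fitted), and leaving out 1 library each gave 11 to 17 higher and 0 to 2 lower; fewer samples leave less power by construction. Genes lower without overlap numbered 5 under median centring, 5 under quantile normalization and 5 to 6 without 1 library (7.46% to 8.96%, against 26.3%, 25.8% and 25.9% to 32.2% of all genes). For the other splicing genes, the higher count was 24 under median centring, 27 under quantile normalization and 24 to 36 without 1 library; the lower count was 4, 6 and 0 to 4, and 1 after removal of GC content and length. The median log2 fold change of the 67 genes was 0.20 under median centring, 0.16 under quantile normalization and 0.21 to 0.33 without 1 library; that of the other splicing genes was 0.19 and 0.17 under the same scalings. With all genes, the median went from 0.09 to 0.01 under median centring and 0.02 under quantile normalization, and the causes were not tested. Without 1 library the median of all genes ran from 0.05 to 0.12, and that of the other splicing genes from 0.23 to 0.30.

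Reversed directions among the 33 genes were as follows. SF3B6 was -0.0025 after rescaling to nuclear genes, -0.0392 under median centring, -0.0531 under quantile normalization and -0.0522 after removal of GC content and length. Under quantile normalization SRSF1 was -0.0116 and SRSF2 -0.0296. Without 1 library each, log2 fold changes ran from -0.15 to 0.23 for SF3B6, -0.10 to 0.37 for SRSF1, -0.11 to 0.29 for SRSF2, -0.17 to 0.0841 for HNRNPA0, -2.01 to 0.38 for HNRNPH2, -0.23 to 0.0582 for SNRPA, -0.48 to 0.23 for SRSF4 and -0.41 to 0.27 for U2AF1. Of the 34 other genes 7 had the opposite sign under at least 1 alternative: HNRNPA1L2, HNRNPC, HNRNPD, PRPF31, SNRPG, SRSF9 and SRSF11.

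Replicate numbers are shared between groups, but the labels do not say that a number marks a shared batch, and same-numbered libraries deviated together at a correlation of only 0.12. With a replicate block, 30 of the 67 genes were higher and 2 lower at an unadjusted limma p under 0.05, and 0 were called; of the other splicing genes 79 were higher and 3 lower. All genes tested went to 20.1% higher and 10.4% lower in that fit. Depth is unknown, so its effect on low genes such as PRPF40B could not be measured.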
